A study of Mus musculus with 8 samples.

Results

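Transcripts of 31 genes of mitochondrial and peroxisomal fatty acid beta-oxidation were measured in the brown adipose tissue of 8 mice. The genes were chosen by symbol from the textbook pathway, and all 31 were found among the 41388 genes of the count tables. They comprise 16 mitochondrial genes, 9 peroxisomal genes, 5 genes whose enzymes have been assigned to both compartments, and Bdh1 of ketone body metabolism. All 31 had enough counts to enter the test across 16705 genes.

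Beta-oxidation removes acetyl units from fatty acyl-CoA in repeated rounds of dehydrogenation, hydration, a further dehydrogenation and thiolytic cleavage. In mitochondria the electrons pass through flavoproteins and NADH to the respiratory chain, and in brown fat this fuel feeds heat production through the uncoupling protein. Peroxisomes shorten very long-chain and branched acyl chains with a separate set of enzymes, in which an oxidase takes the place of the acyl-CoA dehydrogenase. The hydroxyacyl-CoA dehydrogenase step of both compartments consumes NAD+.

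All mice were labelled C57BL/6J and were kept at room temperature on regular chow; their age is not given in the labels used here. The 4 WT mice were labelled wild type (flox/flox), with no Cre named in their label. The 4 ANKO mice combined floxed Nampt with an adiponectin-Cre transgene, whose promoter is active in white and brown adipocytes, so that other cells of the depot keep Nampt. Nampt makes nicotinamide mononucleotide in the salvage route to NAD+, and the comparison asks how brown fat transcripts differ when adipocytes lack it.

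The libraries held 21771276 to 49697156 counts in WT and 5738067 to 26426476 in ANKO. Levels are given as CPM (read counts relative to library size), with library sizes scaled by TMM, a method that equalises the bulk of genes between libraries. Nampt itself was at 484 to 571 CPM in WT and 67.4 to 77.6 CPM in ANKO, as the labels say. The libraries differed in cell type markers. The 12 skeletal muscle markers summed to 40.3 to 2942 CPM in WT and 10091 to 15456 CPM in ANKO, with 9 of 12 higher. The 10 macrophage markers summed to 159 to 229 CPM in WT and 1246 to 1710 CPM in ANKO, with 9 of 10 higher. Of 6 fibroblast markers 6 were higher, with sums of 454 to 580.1 CPM in WT and 1950.3 to 3518 CPM in ANKO. Of 5 lymphocyte markers 4 were higher, with sums of 2.07 to 3.86 CPM in WT and 12.2 to 20.3 CPM in ANKO. The 7 general adipocyte markers were lower in 7 of 7 cases, at 14478 to 19761 CPM in WT and 7855 to 11098 CPM in ANKO. The 7 brown adipocyte markers were lower in 5 cases, with sums of 6164 to 13382 CPM in WT and 865 to 3179.5 CPM in ANKO. Of 5 endothelial markers 3 were lower, with sums of 835 to 944 CPM in WT and 589 to 657 CPM in ANKO. The part of these markers in the results on beta-oxidation genes was not tested, apart from the muscle covariate. No marker was at 0 in every library of a group. Fewer adipocytes and less RNA per adipocyte cannot be told apart in whole tissue.

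Most beta-oxidation genes were lower in ANKO. Of the 31 genes, 27 fell, 2 rose and 2 did not pass the test (edgeR's quasi-likelihood test, Benjamini-Hochberg adjusted p under 0.05 over all genes tested). Over all genes tested, 27.6% were lower, 30.6% were higher and thus 58.2% were called in either direction by the same rule. In 27 genes every ANKO library lay below every WT library, and in 2 every ANKO library lay above, against 26.4% and 28.7% of all genes tested. Without WT3 and WT4, 25 fell and 2 rose, against 22.3% and 27.1% of all genes, and without ANKO3 and ANKO4, 26 fell and 2 rose, against 20.2% and 25.9%. The median log2 fold change was -1.52, beside -0.01 over all genes. Genes abundant in WT were often lower: with a WT mean of at least 100 CPM, 62.3% of all genes were lower and the median was -0.47. Of the beta-oxidation genes 22 were that abundant, and 22 of these fell. Together the 31 genes took 1.95% to 2.15% of the counts outside rRNA in WT and 0.536% to 0.967% in ANKO. With the skeletal muscle marker level as a covariate 18 were called lower and 2 higher, against 10.6% and 14.4% of all genes, and the median was -1.32. The marker level did not overlap between the groups (mean log2 CPM 1.39 to 7.5 in WT, 9.33 to 9.91 in ANKO), and the median standard error of the 31 genes widened from 0.22 to 0.36.

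**Figure D1:**
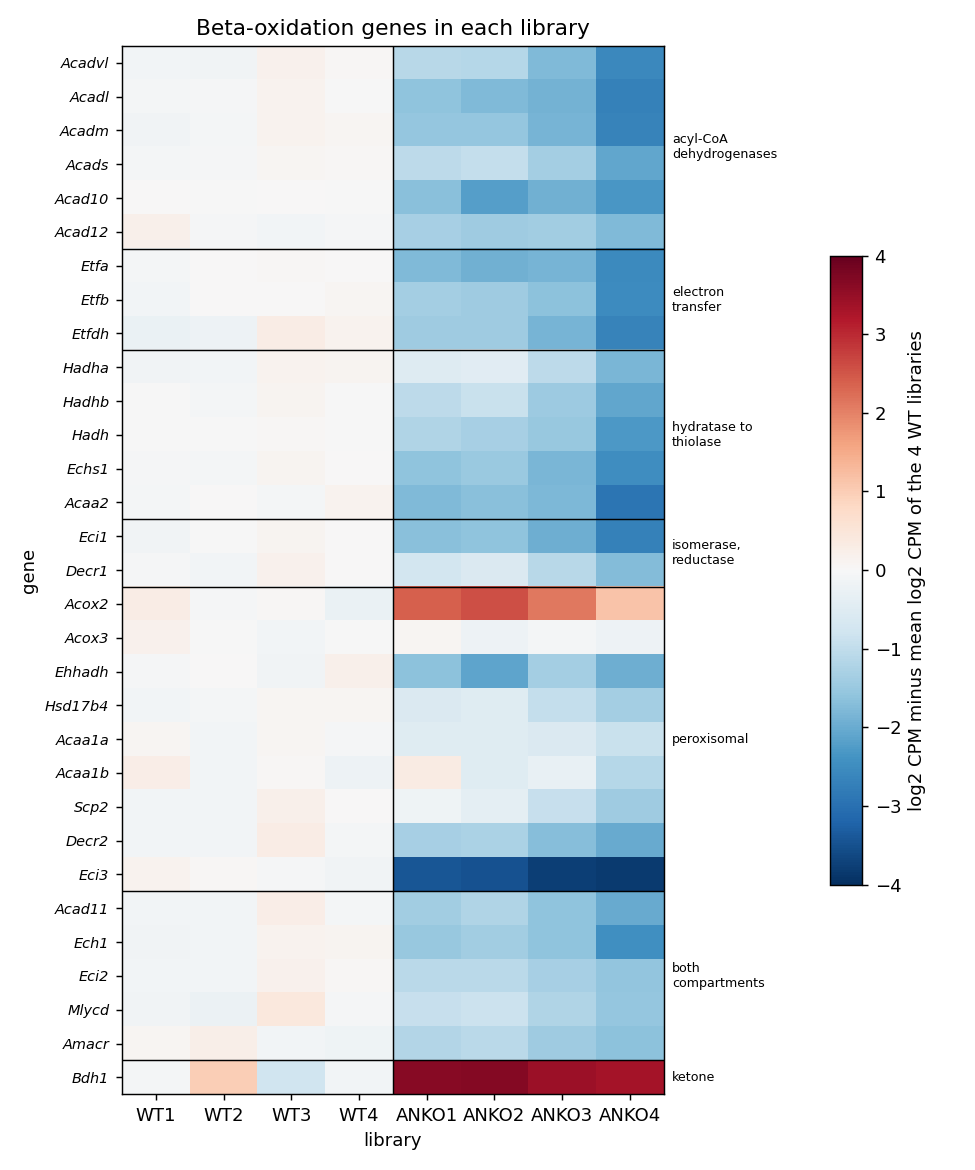
Level of each of the 31 genes (rows, grouped by role) in each library (columns), as log2 CPM minus the mean log2 CPM of the 4 WT libraries. Blue is lower and red is higher. Blue fills most ANKO columns and is deepest in ANKO4, while Acox2 and Bdh1 are red.

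The mitochondrial acyl-CoA dehydrogenases, which introduce the first double bond and differ in the chain length they prefer, fell in 6 of 6 cases. Acadl, the long-chain enzyme (ENSMUSG00000026003, chromosome 1, 66830839 to 66863277, minus strand, GRCm38), was at 1767, 1795, 2037 and 1834 CPM in WT. In ANKO it was at 609, 545, 495 and 283 CPM. Every ANKO library lay far below the WT range, and ANKO4 was the lowest. The change was 3.84-fold (log2 fold change -1.94 with an SE of 0.23, edgeR adjusted p = 5.64e-05). Acadm, the medium-chain enzyme, went from 2147 ± 210 to 595 ± 184 CPM (SD, n = 4 each), a 3.61-fold decrease. Acadvl, the very long-chain enzyme of the inner membrane, went from 1550 ± 162 to 536 ± 220 CPM. Its exons overlap those of Dvl2 on the opposite strand over 42.9% of their bases and reads of the pair cannot be told apart there without strand; Dvl2 had 3888 counts over the 8 libraries and Acadvl 224842. Acads, the short-chain enzyme, had the smallest decrease of the class, 2.48-fold. With the muscle covariate Acadvl was no longer called (log2 fold change -1.20 ± 0.48, SE, from -1.53 ± 0.29), while Acadl, Acadm and Acads kept their calls.

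Acad10 and Acad12 are neighbours on chromosome 5 and share sequence. Both were low in WT, at 14.2 and 9.07 CPM per kb of exon, beside 927 CPM per kb for Acadl. Acad10 was at 87.6, 85.1, 86.5 and 86.2 CPM in the WT mice and 26.9, 18.7, 23.0 and 17.3 CPM in the ANKO mice. The WT values lay close together, and the 3.98-fold decrease was the largest of the class (log2 fold change -1.99 with an SE of 0.13, edgeR adjusted p = 1.59e-06). Acad12 fell 2.77-fold. Of the 50-base windows in Acad12 transcripts 15.7% also occur in Acad10, so the counting could move reads between them. Both kept their calls with the muscle covariate, at -1.96 and -1.55.

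The electron transfer flavoprotein takes the electrons from the acyl-CoA dehydrogenases and passes them to ubiquinone. Its subunits Etfa and Etfb and the membrane oxidoreductase Etfdh fell in 3 of 3 cases. Etfb was at 901, 977, 975 and 1028 CPM across WT, and 379, 358, 311 and 169 CPM across ANKO. The groups did not overlap, and the decrease was 3.19-fold (log2 fold change -1.67 with an SE of 0.23, edgeR adjusted p = 0.000163). Etfa, its partner, had a WT level of 662 ± 27.3 CPM and an ANKO level of 167 ± 36.0 CPM. Its decrease of 3.96-fold was among the largest of the mitochondrial genes. There were 0.651 to 0.707 Etfa reads per Etfb read in WT. ANKO libraries 1 to 3 had 0.515, 0.490 and 0.588, and ANKO4 had 0.677, inside the WT range. Etfdh fell 3.44-fold, and with the muscle covariate it was at -1.28 ± 0.42 (SE) with an edgeR adjusted p of 0.0514, from -1.78 ± 0.27.

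Hadha and Hadhb encode the subunits of the trifunctional protein, which carries out the hydratase, dehydrogenase and thiolase steps for long chains. The genes lie head to head on chromosome 5, with 85 bases between their spans in the count tables, and their transcripts are read in opposite directions. The promoter windows are shown because both genes start from opposite ends of a common upstream stretch. Each window runs from 250 bases before to 50 bases after the RefSeq start site (GRCm38.p6), 5′ to 3′ on the strand of its gene. Capitals mark the 228 bases that both windows hold, on opposite strands; the RefSeq start sites lie 273 bases apart.
Hadha, chr5:30154931-30155230, minus strand: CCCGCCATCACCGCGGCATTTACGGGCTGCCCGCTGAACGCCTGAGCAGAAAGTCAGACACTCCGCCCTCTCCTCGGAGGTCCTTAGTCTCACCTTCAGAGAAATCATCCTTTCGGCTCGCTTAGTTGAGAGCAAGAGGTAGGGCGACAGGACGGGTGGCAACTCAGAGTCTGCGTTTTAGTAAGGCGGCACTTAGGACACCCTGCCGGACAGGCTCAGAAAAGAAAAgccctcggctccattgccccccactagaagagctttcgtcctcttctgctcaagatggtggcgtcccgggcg
Hadhb, chr5:30155003-30155302, plus strand: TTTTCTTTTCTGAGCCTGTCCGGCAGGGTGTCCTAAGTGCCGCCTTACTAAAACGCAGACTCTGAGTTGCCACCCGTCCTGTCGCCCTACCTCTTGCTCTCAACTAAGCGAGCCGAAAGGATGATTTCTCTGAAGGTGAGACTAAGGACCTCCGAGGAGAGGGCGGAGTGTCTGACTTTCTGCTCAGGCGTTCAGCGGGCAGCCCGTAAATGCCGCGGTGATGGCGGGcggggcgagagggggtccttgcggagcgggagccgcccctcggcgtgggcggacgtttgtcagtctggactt

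Hadha had the highest mean CPM of the 31 genes in WT, with libraries at 2510, 2548, 3029 and 2936 CPM. In ANKO it was at 1923, 2002, 1337 and 768 CPM. The groups did not overlap, and ANKO4 was the lowest library. The 1.83-fold decrease was the smallest of the mitochondrial genes (log2 fold change -0.87 with an SE of 0.28, edgeR adjusted p = 0.0203). Its call ended with the muscle covariate (-0.55 ± 0.48, SE), without WT3 and WT4 (-0.76) and without ANKO3 (-0.82). Hadhb was at 550, 526, 591 and 547 CPM in WT against 266, 300, 201 and 130 CPM in ANKO. It fell 2.47-fold (log2 fold change -1.30 with an SE of 0.23, edgeR adjusted p = 0.000739), and was at -1.15 ± 0.39 (SE) with the muscle covariate, where its adjusted p was 0.0533. There were 4.56, 4.84, 5.13 and 5.36 Hadha reads per Hadhb read in WT and 7.24, 6.67, 6.64 and 5.92 in ANKO. All 4 ANKO ratios lay above the WT ratios. This ratio was chosen after its values had been seen and was not tested.

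The matrix enzymes for shorter chains fell further. Acaa2, the mitochondrial ketoacyl-CoA thiolase (ENSMUSG00000036880, chromosome 18, 74779197 to 74806207, plus strand), had the highest WT level per length of the 31 genes, at 1680 CPM per kb. It was at 2427, 2551, 2431 and 2774 CPM in the WT mice and 746, 802, 732 and 335 CPM in the ANKO mice. ANKO4 stood well below the other ANKO libraries, and the decrease was 3.89-fold (log2 fold change -1.96 with an SE of 0.26, edgeR adjusted p = 0.000125). Echs1, the short-chain enoyl-CoA hydratase, fell 3.49-fold, from 954 ± 55.3 to 273 ± 76.0 CPM. Hadh, the NAD+-dependent hydroxyacyl-CoA dehydrogenase, fell 2.88-fold, from 1464 ± 32.5 to 509 ± 150 CPM. All 3 kept their calls with the muscle covariate, at log2 fold changes of -1.83, -1.63 and -1.45.

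Unsaturated fatty acids need auxiliary enzymes that move or remove double bonds. Eci1, the mitochondrial enoyl-CoA isomerase, was at 611, 669, 724 and 681 CPM across WT, and 208, 217, 174 and 103 CPM across ANKO. It fell 3.82-fold (log2 fold change -1.93 with an SE of 0.22, edgeR adjusted p = 4.53e-05). Decr1, the mitochondrial dienoyl-CoA reductase, fell less, 1.97-fold, from 736 ± 64.7 to 373 ± 119 CPM. With the muscle covariate Eci1 stayed called, and Decr1 was at -0.74 ± 0.39 (SE) and was not called.

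**Figure D2:**
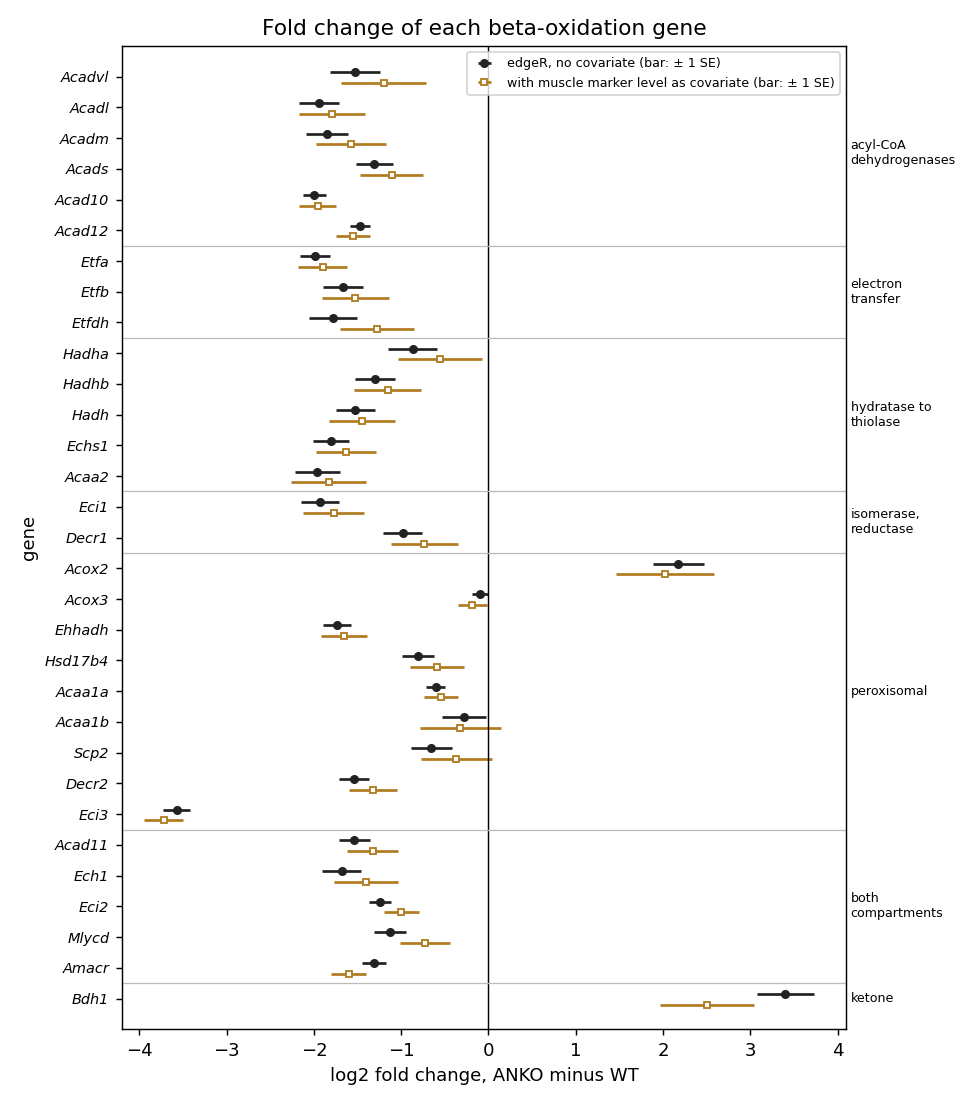
Log2 fold change of each gene, ANKO minus WT, from edgeR without a covariate (filled circles) and with the mean skeletal muscle marker level as a covariate (open squares). Bars are ± 1 standard error. Mitochondrial genes lie between -1.99 and -0.87, peroxisomal genes between -3.57 and 2.18, and the covariate widens the errors.

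The genes assigned to both compartments fell in 5 of 5 cases, with a median log2 fold change of -1.31. Ech1, a dienoyl-CoA isomerase, was the most abundant, at 1248, 1291, 1504 and 1488 CPM in WT against 484, 531, 455 and 253 CPM in ANKO. It fell 3.21-fold (log2 fold change -1.68 with an SE of 0.22, edgeR adjusted p = 0.000127). Acad11, a dehydrogenase with a kinase-like domain, fell 2.90-fold. Eci2, an enoyl-CoA isomerase, fell 2.37-fold. Amacr, the racemase that prepares branched-chain acyl-CoA for oxidation, fell 2.48-fold. Mlycd, which breaks down malonyl-CoA, the inhibitor of carnitine palmitoyltransferase, went from 165 ± 34.7 to 75.1 ± 15.6 CPM. Mlycd was the single gene of the 5 not called with the muscle covariate (-0.73 ± 0.29, SE, from -1.13 ± 0.18), and Amacr was at -1.60 there, from -1.31.

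Peroxisomal genes were spread more widely than mitochondrial ones. Of 9, 6 fell, 1 rose and 2 did not pass the test, with a median log2 fold change of -0.66, where the 16 mitochondrial genes fell in 16 cases with a median of -1.73. With the muscle covariate 3 were lower and 1 higher. Acox2 and Acox3, the oxidases among the 9, were not among those that fell. Acox3, which acts on branched chains, was at 81.5, 71.7, 67.4 and 71.4 CPM in the WT mice and 76.1, 63.4, 69.5 and 63.2 CPM in the ANKO mice. The groups overlapped, and the log2 fold change of -0.10 had a standard error of 0.10 (edgeR adjusted p = 0.396); without TMM scaling it was 0.08. Acox2, the oxidase of bile acid intermediates and branched chains, was at 1.39, 1.09, 1.16 and 0.933 CPM across WT, and 5.97, 6.80, 4.92 and 2.48 CPM across ANKO. All ANKO libraries lay above WT, at a low level of 17 to 156 counts, and Acox2 rose 4.52-fold (log2 fold change 2.18 with an SE of 0.29, edgeR adjusted p = 0.000142).

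The bifunctional enzymes that follow the oxidases both fell, by different amounts. Ehhadh, the enzyme of the L-hydroxy route, was at 155, 161, 144 and 183 CPM in WT against 51.9, 37.1, 62.2 and 41.1 CPM in ANKO. It fell 3.33-fold (log2 fold change -1.74 with an SE of 0.16, edgeR adjusted p = 1.23e-05) and was at -1.65 with the muscle covariate. Hsd17b4, the enzyme of the D-hydroxy route, had the highest level per length of the 9 peroxisomal genes, at 119 CPM per kb in WT. It was at 378, 385, 429 and 426 CPM in the WT mice and 272, 287, 208 and 158 CPM in the ANKO mice, a 1.75-fold decrease (log2 fold change -0.81 with an SE of 0.18, edgeR adjusted p = 0.00335). With the muscle covariate its value was -0.59 ± 0.31 (SE) and its call was lost.

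Thiolase genes of the peroxisome changed least among those that fell. Acaa1a went from 113 ± 6.96 to 74.2 ± 9.60 CPM, a 1.52-fold decrease (log2 fold change -0.60 with an SE of 0.11, edgeR adjusted p = 0.000858), and was at -0.54 ± 0.19 (SE) and not called with the muscle covariate. Acaa1b, its close copy, was at 29.1, 22.6, 25.3 and 21.4 CPM across WT, and 30.9, 17.3, 19.9 and 11.1 CPM across ANKO. The groups overlapped, ANKO1 being the highest of the 8 libraries, and the gene did not pass the test (log2 fold change -0.28 with an SE of 0.25, edgeR adjusted p = 0.363). Without ANKO1 it was called, at -0.60 (edgeR adjusted p = 0.0288). Of the 50-base windows of Acaa1b transcripts 30.5% also occur in Acaa1a, so its level is uncertain. Scp2, a thiolase for branched chains and a sterol carrier, was at 277, 274, 340 and 299 CPM in WT against 262, 225, 156 and 111 CPM in ANKO. ANKO1 lay close under the WT range and ANKO4 far below it. Its call (log2 fold change -0.66 with an SE of 0.23, edgeR adjusted p = 0.0335) ended without WT3, WT4 or ANKO3 (-0.60, -0.66 and -0.58), without WT3 and WT4 together (-0.56), without ANKO3 and ANKO4 together (-0.29), and with the muscle covariate (-0.37 ± 0.41, SE).

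Decr2 and Eci3, peroxisomal enzymes for unsaturated chains, both fell. Decr2, the dienoyl-CoA reductase, went from 80.5 ± 11.8 to 27.5 ± 6.50 CPM, a 2.91-fold decrease. Eci3, an enoyl-CoA isomerase (ENSMUSG00000021416, chromosome 13, 34946614 to 34963810, minus strand), was at 18.4, 17.1, 16.2 and 15.3 CPM in WT. In ANKO it was at 1.57, 1.5, 1.23 and 1.17 CPM, from 41, 13, 13 and 8 counts. The libraries of each group lay close together and far from the other group, and the 11.9-fold decrease was the largest of the 31 genes (log2 fold change -3.57 with an SE of 0.15, edgeR adjusted p = 1.63e-07). With the muscle covariate it was at -3.72. Its neighbour and paralog Eci2 lies 13937 bases away on the same strand and fell 2.37-fold. There were 0.104 to 0.144 Eci3 reads per Eci2 read in WT and 0.0225 to 0.0251 in ANKO, and 8.70% of the 50-base windows of Eci3 transcripts also occur in Eci2.

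**Figure D3:**
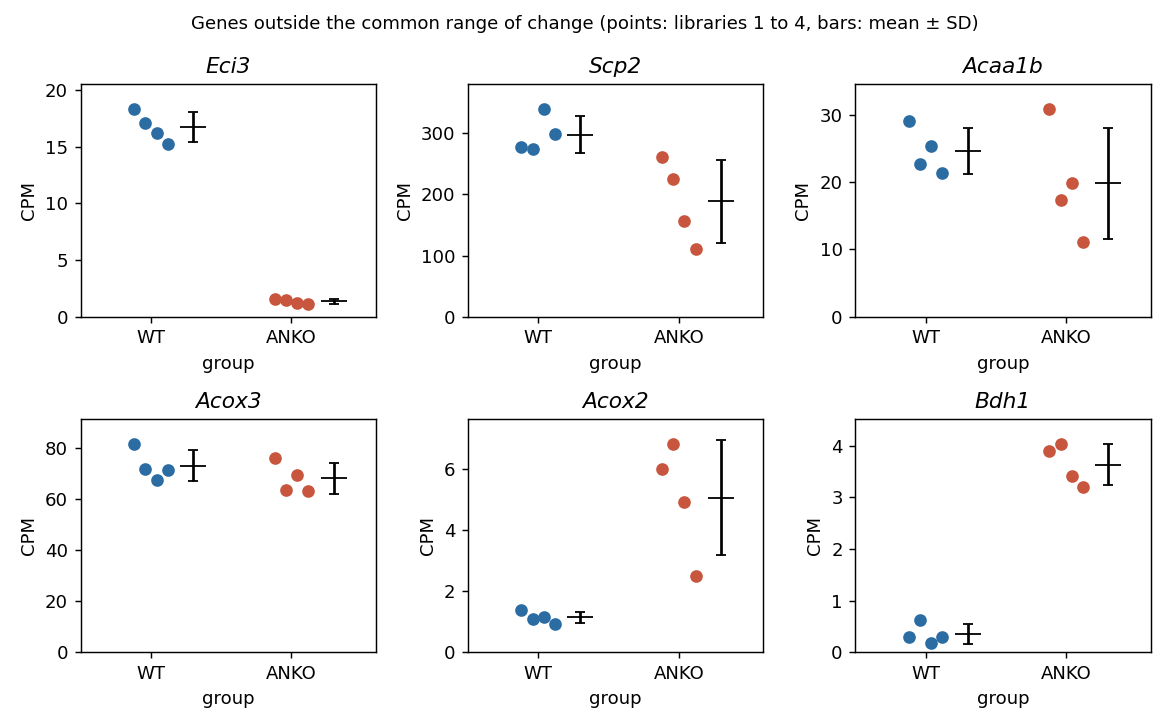
CPM of 6 genes that lie outside the common range of change or close to no change (linear axes from 0). Points are libraries 1 to 4 of each group and bars are mean ± SD. The groups are separate in Eci3, Scp2, Acox2 and Bdh1, and overlap in Acaa1b and Acox3.

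Mitochondrial and peroxisomal transcripts changed unequally within the same library. Summed CPM of the 16 mitochondrial genes was 17367, 17794, 20017 and 19382 in WT and 7862, 7970, 6158 and 3506 in ANKO. Summed CPM of the 9 peroxisomal genes was 1134, 1112, 1240 and 1203 in WT and 813, 753, 621 and 468 in ANKO. The mitochondrial sum was 15.3 to 16.1 times the peroxisomal sum in WT and 7.5 to 10.6 times in ANKO. The sums are led by their most abundant members and are given without a test. The muscle markers, shown beside them, were lowest in WT3 and WT4, where the mitochondrial sum was highest, and their part in the result was not tested.

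**Figure D4:**
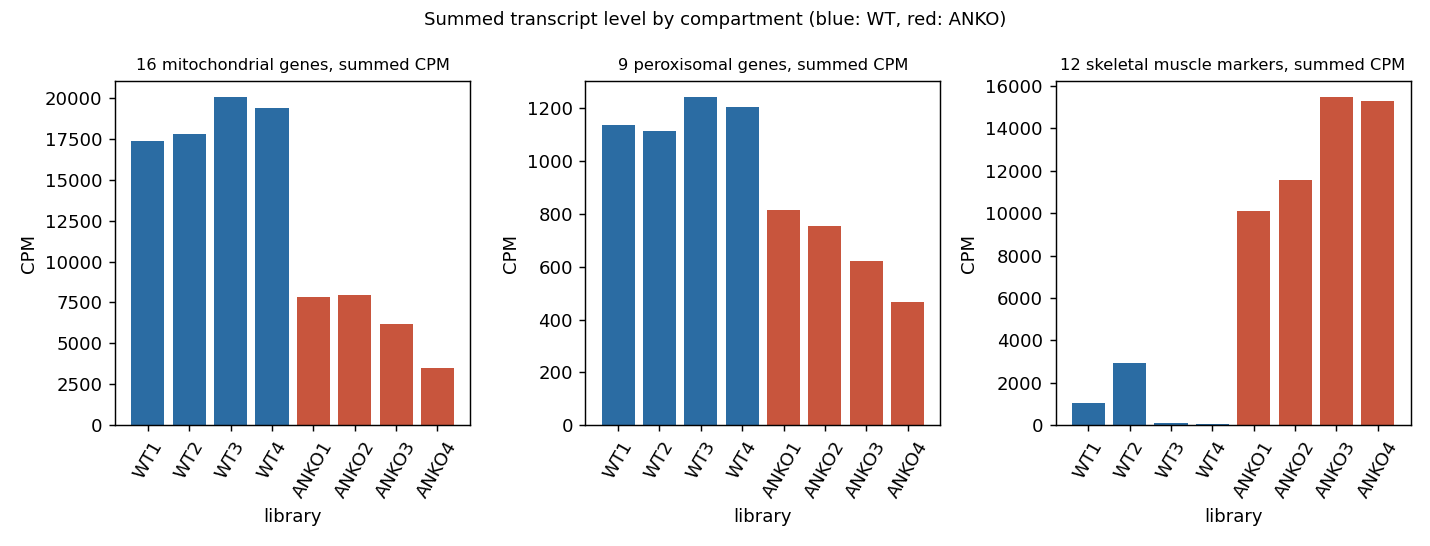
Summed CPM in each library of the 16 mitochondrial genes (left), the 9 peroxisomal genes (middle) and 12 skeletal muscle markers (right), on linear axes from 0. Blue bars are WT and red bars are ANKO. Both sums of beta-oxidation genes are lower in every ANKO library, and the muscle sum is higher.

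Ratios of genes for corresponding steps, taken within each library, do not depend on the scaling of library sizes. The pairs are not like for like throughout. Acox3 encodes an oxidase and Acadvl a dehydrogenase, and Scp2 is also a sterol carrier. Of 7 ratios 4 were higher in ANKO, 1 was lower and 2 were not called, by exact two-sided permutation tests adjusted over the 7. No share over other gene pairs was computed. Of all single genes tested, 26.4% had every ANKO library below every WT library, and 28.7% had every ANKO library above. The smallest p that 4 against 4 libraries allow is 0.0286, and the 5 called ratios reached it (adjusted p = 0.0400 for each). Acox3 was at 5.70%, 5.09%, 3.84% and 4.45% of the Acadvl count in WT and at 10.6%, 8.98%, 15.2% and 24.4% in ANKO, a mean difference of 1.54 on the log2 scale. Acaa1a was at 3.94% to 4.92% of the Acaa2 count in WT and at 10.1% to 18.0% in ANKO, a log2 difference of 1.43. Eci2 over Eci1 rose by 0.73 on the log2 scale and Scp2 over Hadhb by 0.64. Decr2 over Decr1 went the other way, from 10.2% to 11.9% in WT to 6.86% to 9.01% in ANKO (log2 difference -0.53). Ehhadh over Hadha had a log2 difference of -0.80 with overlapping groups (exact permutation p = 0.0571, adjusted p = 0.0667). Hsd17b4 over Hadha had a log2 difference of 0.12 (exact permutation p = 0.543), and without ANKO4 it was -0.01. Among these 7 pairs the partner of the peroxisome, or of both compartments, gained on its mitochondrial counterpart at some steps and lost at another. Without the share for other gene pairs, the count of called ratios is not a result about the compartments.

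**Figure D5:**
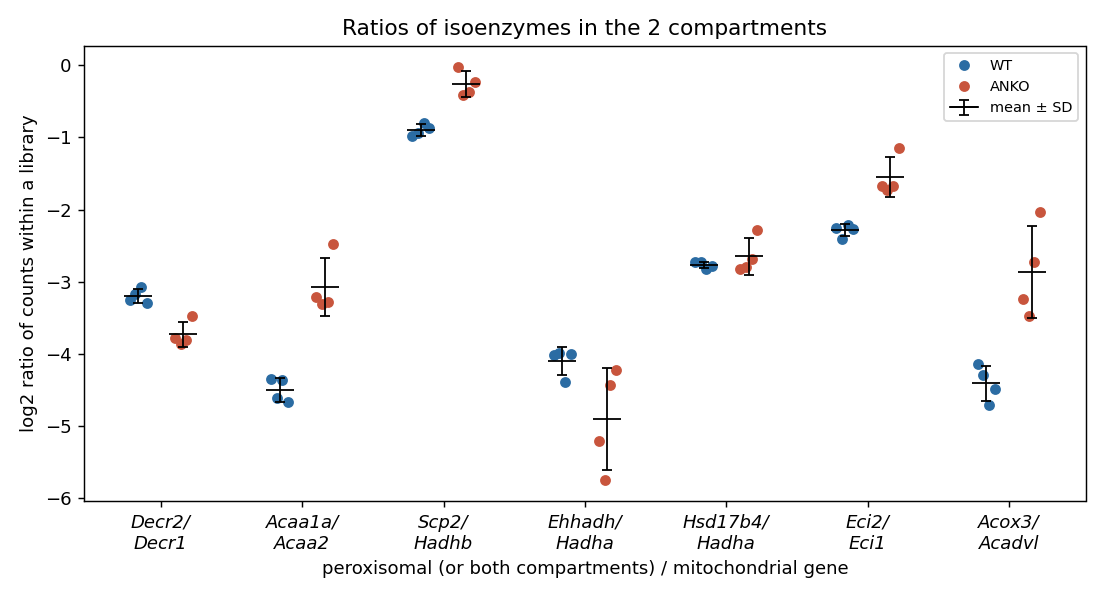
Log2 ratio of read counts of a gene of the peroxisome, or of both compartments, to its mitochondrial counterpart, within each library. Points are libraries (blue WT, red ANKO) and bars are mean ± SD. The groups are separate in 5 of the 7 ratios, and ANKO4 has the highest ANKO ratio in 6 of them.

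Ketone body genes moved in both directions. Bdh1, the mitochondrial hydroxybutyrate dehydrogenase (ENSMUSG00000046598, chromosome 16, 31422280 to 31458901, plus strand), was nearly absent in WT, at 0.297, 0.622, 0.183 and 0.296 CPM from 6, 16, 6 and 13 counts. In ANKO it was at 3.90, 4.03, 3.40 and 3.21 CPM. All ANKO libraries lay above WT and close together, and Bdh1 rose 10.6-fold (log2 fold change 3.40 with an SE of 0.33, edgeR adjusted p = 1.55e-05). With the muscle covariate the value was 2.50 ± 0.53 (SE) and the call stayed, and without WT3 and WT4 it was 2.92. The muscle marker sums were 1040, 2942, 131 and 40.3 CPM in WT1 to WT4. In ANKO1 to ANKO4 they were 10091, 11568, 15456 and 15264 CPM. The Bdh1 levels of WT rest on 6 to 16 counts and those of ANKO span only 3.21 to 4.03 CPM. The order of single libraries within a group therefore cannot be read against the muscle sums. The part of muscle RNA in the result was not tested.

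Of 5 other ketone body genes 3 fell and 2 rose. Only 1 of those that rose had every ANKO library above every WT library. With the muscle covariate 3 were called lower and 0 higher. Oxct1, the transferase that activates acetoacetate for use, went from 532 ± 34.7 to 166 ± 14.95 CPM, a 3.21-fold decrease (edgeR adjusted p = 1.97e-06). Bdh2, a cytosolic dehydrogenase, rose from 0.171 to 0.787 CPM, near the level of 3 counts in the shallowest library (0.527 CPM before scaling, counting error only), and was not called with the covariate (edgeR adjusted p = 0.0605).

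Genes of neighbouring steps fell in most cases, but many of these calls were lost with the muscle covariate. Of 4 genes of carnitine entry, through which acyl groups reach the matrix, 3 fell and 1 rose, and with the covariate 1 was called lower and 1 higher. Cpt1b, the muscle-type palmitoyltransferase of the outer membrane, fell 3.45-fold, while Cpt1a, the liver type, was at 17.9, 15.6, 16.5 and 17.3 CPM across WT, and 54.9, 50.02, 66.4 and 74.2 CPM across ANKO. There were 0.281 to 0.376 Cpt1a reads per Cpt1b read in WT and 2.80 to 8.21 in ANKO. The 5 other acyl-CoA dehydrogenases, of amino acid breakdown and complex I assembly, fell in 5 of 5 cases, and 4 were called lower with the covariate. Gcdh, of lysine and tryptophan breakdown, fell furthest, by 3.25-fold (edgeR adjusted p = 1.07e-05). Of 14 other peroxisomal fatty acid genes 9 fell, 0 rose and 5 did not pass the test, with a median log2 fold change of -0.82, and with the covariate 4 were called lower. Acot4, a thioesterase of succinyl-CoA and dicarboxylic acyl-CoA, fell 4.35-fold. Among those that did not pass were Abcd2, a transporter of very long-chain acyl-CoA, Crot, which forms medium-chain acylcarnitine, and the CoA hydrolases Nudt7 and Nudt19, with log2 fold changes of -0.03, -0.30, -0.36 and -0.28. Adjusted p-values of these 4 ran from 0.171 to 0.902 (edgeR); without WT3 and WT4, Crot was called at -0.61.

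The promoter windows of 27 of the 31 genes were at hand, 29 windows in all. A direct repeat of AGGTCA with any 1 base between the copies, the form of the PPAR and RXR element, was in 0 of 29 windows and in 0.0396% of all 32851 windows, on either strand. Only exact matches inside the windows were counted. With so rare a sequence, 0 of 29 carries no information on such elements in these genes. AAGGTCA, the core letters bound by estrogen-related receptors, was in 1 of 29 windows and in 4.72% of all windows. Its longer form CAAAGGTCA, each match of which also holds AAGGTCA, was in 0 of 29 and 0.478% of all. The 1 window with a match was that of Acadm, shown with the match in capitals (reverse complement, TGACCTT, starting at -249 from the start site).
Acadm, chr3:153944594-153944893, minus strand, GRCm38.p6: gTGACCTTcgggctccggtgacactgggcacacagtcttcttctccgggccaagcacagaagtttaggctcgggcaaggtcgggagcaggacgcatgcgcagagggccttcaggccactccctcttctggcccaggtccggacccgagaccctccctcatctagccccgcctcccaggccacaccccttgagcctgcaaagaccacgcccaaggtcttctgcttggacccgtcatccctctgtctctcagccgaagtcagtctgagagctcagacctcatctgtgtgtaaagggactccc

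For most of the 31 genes the ANKO libraries differed among themselves more, relative to their mean, than the WT libraries. ANKO4 was the lowest ANKO library for 30 of the 31 genes, and ANKO2 the highest for 19. In WT, WT3 was the highest for 19 genes and WT1 the lowest for 14. Across ANKO libraries the coefficient of variation was 29.2% for Acadl and 41.1% for Acadvl, against 6.57% and 10.5% in WT. Bdh1 and Mlycd went the other way, at 10.9% and 20.7% in ANKO against 54.1% and 21.1% in WT. ANKO4 was also the shallowest library and had the lowest brown adipocyte marker sum, 865 CPM, against 1954 to 3179.5 CPM in the other ANKO libraries. The part of these in the spread was not tested. Without ANKO4 the number of genes called lower was 27 and the number called higher 2, the same 29 genes as with it.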

How the data were processed

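RNA from flash-frozen brown adipose tissue of 4 WT and 4 ANKO mice was depleted of rRNA (Ribo-Zero Gold), per the labels' protocols. STAR 2.0.4b, featureCounts 1.45 and GRCm38 are named in the submitters' processing notes. How strand and reads with several matches were handled, and which annotation was counted, is not stated in the labels. The deposited tables give, per gene and per the file headers, raw counts, CPM and RPKM made by the authors; the CPM and RPKM columns were used only to check that they follow from the counts (tolerance 1e-09).

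Symbols came from GENCODE M21 by Ensembl ID. From the counts, 355 rRNA genes were left out, which held 2.83% to 3.53% of WT and 0.801% to 1.13% of ANKO counts. Low genes were removed with filterByExpr, which left 16705. Groups were compared with edgeR 4.0.16 (TMM, robust quasi-likelihood test, Benjamini-Hochberg adjustment) in R 4.3.3. The test was tried on simulated data in which few genes changed, in both directions. Here 58.2% of genes were called, so the simulation does not cover scaling and testing in data such as these. The biological coefficient of variation was 20.6%. The test gives no standard error, so each SE is approximate. It was taken as the absolute log2 fold change divided by the square root of the test's F statistic. Values of 3 counts correspond to 0.0626 CPM in the deepest and 0.527 CPM in the shallowest library. These floors cover counting error only, while the SD and SE values also take in differences between mice. Ratios used counts with 0.5 added and exact permutation tests in scipy 1.17.1. Alternatives were RLE, upper-quartile or no scaling, other filters, DESeq2 1.42.0, limma-voom 3.58.1, a replicate block, leaving out libraries and a muscle marker covariate; leaving out ANKO3 and ANKO4 was chosen after seeing the data. No pair of libraries agreed within sampling noise (lowest chi-square per degree of freedom 6.63). Every gene of the set is named; of each list of other pathway genes, the called gene with the largest change in each direction and those against the majority. Abcd2, Crot, Nudt7 and Nudt19, which did not pass the test, were named beyond that rule, after their values were seen. Some genes of these lists enter the counts but are not reported here by name. The members and lists were chosen with earlier results of these data known. Protein sequences were not used here.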

Additional observations from a re-analysis of the deposited data

Results flagged for a closer look

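Of 62 groups of 4 libraries (31 genes in WT and in ANKO), 4 held a library whose gap to its neighbour was large against the range of its group; chance gives about 1 in 20 such groups. In WT1, Acad12 stood at 51.9 CPM, above the 42.2 to 43.9 CPM of the other WT libraries. In ANKO4, Acaa2 stood at 335 CPM, below the 732 to 802 CPM of the other ANKO libraries. In WT3, Decr2 stood at 98.2 CPM and Acad11 at 463 CPM, above the other WT libraries at 73.6 to 75.6 CPM and 356 to 367 CPM. Acad12, Acaa2, Decr2 and Acad11 were called lower with and without these libraries.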

How the results depend on the processing

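The number of beta-oxidation genes called lower was 27, and 2 were called higher, under RLE, upper-quartile or no scaling, without a filter, with a stricter filter, in DESeq2, in limma-voom, among protein-coding nuclear genes and with the replicate block. The replicate numbers did not pair the samples: same-numbered libraries deviated with correlations of 0.11, -0.01, 0.07 and -0.05. Leaving out each library gave 25 to 28 lower and 2 higher. It was 25 without WT3 and WT4, 26 without ANKO3 and ANKO4, 18 with the muscle covariate, 25 at an adjusted p under 0.01 and 22 with a log2 change of at least 1, with 2 higher in each. Of single-gene values under all alternatives, 602 kept direction and side of the threshold, 16 lost the call, 1 gained it and 1 reversed: Acox3, not called either way, went from -0.10 to 0.0812 without scaling, where the median of all genes moved to 0.17, which is the construction of that setting. The log2 difference of Hsd17b4 over Hadha ranged from -0.0063 to 0.17 when each library was left out; for the other losses the cause was not tested. Ratios without a library cannot reach the threshold of 0.05 in an exact test and are given as values only. The 17 counts of Acox2 in ANKO4 and the 6 of Bdh1 in WT limit the precision of their folds.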
